A study of Homo sapiens with 12 samples.

Results

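In the lung adenocarcinoma line NCI-H2009, acetylation of histone H3 at lysine 27 (H3K27ac) was compared between 2 libraries labelled e3KRAB1 and e3KRAB2 and 2 libraries labelled Empty and Control. These are 4 of the 12 samples of a series that profiled H3K27ac by chromatin immunoprecipitation and sequencing in human cancer cell lines. They were chosen by their labels, and each label has 1 library, so no replicate error exists for any label and no test between labels was possible. Cells were grown in RPMI medium with fetal bovine serum, and 1 antibody, ab4729, was used throughout. The labels give "No treatment" for all of them, do not expand e3 or KRAB, and do not say how the cells of the 4 libraries were made, whether they were pools or clones, or which guide was used. Every difference below is therefore a difference between 4 libraries of 1 cell line.

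H3K27ac is deposited by the acetyltransferases p300 and CBP on nucleosomes flanking active promoters and enhancers, and it falls when such elements are shut. The KRAB domain of zinc finger repressors binds TRIM28, which brings the methyltransferase SETDB1 and deacetylases to a site, and KRAB fused to an inactive Cas9 is used to silence chosen enhancers. Such a fusion can also act at places other than the chosen one, and a look across the whole genome for lost peaks is a way to search for that.

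The names given to the peaks inside the lists disagreed in part with the labels. All 4 sets of names contain krab, followed by N1 in the e3KRAB1 list, Ctrl2 in the e3KRAB2 list, NoSg in the Empty list and D98 in the Control list. Only the e3KRAB2 list thus carried a tag with Ctrl in it, and the list labelled Control did not. If the files of e3KRAB2 and Control had been exchanged, every drop, rise, loss and gain below would compare other libraries; this was not tested, and leaving out a library does not address it. The labels were followed throughout. Values without single libraries stand beside the results they change.

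The lists were short. On chromosomes 1 to 22 and X the e3KRAB1 list held 2315 peaks and the e3KRAB2 list 1375, against 1960 in Empty and 3250 in Control. The 2 H2009 libraries without such a label, called untreated here, held 26887 and 26412. Median peak width was 345 bp in e3KRAB1, 336 bp in e3KRAB2, 345.5 bp in Empty and 356 bp in Control. The lists give no read numbers and depth is unknown; a missing peak means only that none was called. To compare lists of unequal length, each was also cut to its 1375 strongest peaks by the authors' −log10 q, the length of the e3KRAB2 list.

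The promoters of 4 genes are printed as examples of places that differed between the lists. They were picked from the best-ranked lost and gained places with a gene named, and do not stand for the rest. PREB, a guanine exchange factor needed for transport out of the endoplasmic reticulum, and ZNF335, a zinc finger regulator of transcription, had a peak at their start in Empty and Control and none in either e3KRAB list. TGOLN2, a membrane protein of the trans-Golgi network, and GSTO1, a glutathione transferase of the omega class, had one in both e3KRAB lists and none in Empty or Control. The 250 bases before each start are given 5′ to 3′ on the strand of the gene, from RefSeq on GRCh38.p14. Capitals mark the letters GGGCGG or CCAAT, searched on both strands, so that the complements CCGCCC and ATTGG are capitals too; the motifs do not overlap here.
PREB: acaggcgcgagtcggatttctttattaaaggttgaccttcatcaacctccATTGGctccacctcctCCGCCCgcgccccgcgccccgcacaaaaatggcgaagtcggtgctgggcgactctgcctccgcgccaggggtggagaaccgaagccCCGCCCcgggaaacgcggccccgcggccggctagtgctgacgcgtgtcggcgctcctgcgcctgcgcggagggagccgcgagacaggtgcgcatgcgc
ZNF335: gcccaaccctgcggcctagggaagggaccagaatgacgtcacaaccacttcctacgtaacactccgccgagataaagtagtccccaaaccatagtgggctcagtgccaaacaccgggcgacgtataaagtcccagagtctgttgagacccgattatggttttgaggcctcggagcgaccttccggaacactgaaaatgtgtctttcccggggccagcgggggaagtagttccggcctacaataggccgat
TGOLN2: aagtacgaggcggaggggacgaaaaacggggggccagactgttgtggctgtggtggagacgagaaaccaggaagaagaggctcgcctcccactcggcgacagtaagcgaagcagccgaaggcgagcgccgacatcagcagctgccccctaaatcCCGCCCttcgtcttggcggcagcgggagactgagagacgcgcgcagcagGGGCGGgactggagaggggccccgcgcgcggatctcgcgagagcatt
GSTO1: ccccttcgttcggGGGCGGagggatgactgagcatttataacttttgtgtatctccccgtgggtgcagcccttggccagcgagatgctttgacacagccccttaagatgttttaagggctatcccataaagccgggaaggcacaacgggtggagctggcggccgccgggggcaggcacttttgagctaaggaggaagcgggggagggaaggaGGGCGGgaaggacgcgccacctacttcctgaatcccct
GGGCGG occurred 2 times each in the PREB, TGOLN2 and GSTO1 windows and 0 times in the ZNF335 window. CCAAT occurred 1 time, in the PREB window. Among 35116 RefSeq promoters 42.6% held GGGCGG and 32.0% held CCAAT.

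Few regions were shared by the 4 lists. Overlapping peaks of the whole lists merged into 5926 regions, of which 4055, or 68.4%, had a peak in 1 list only and 271, or 4.57%, in all 4. With lists of equal length, 196 of 3717 regions were in all 4. The 271 regions had a median width of 650 bp, but each joins the peaks of all 4 lists, which widens it over a single peak. The untreated lists had a peak in 78.6% and 80.1% of them.

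Places beside centromeres took a large share of the shared regions. Of the 271, 93, or 34.3%, lay within 5 Mb of a centromere block, against 7.07% and 7.09% of the peaks of the untreated lists. The untreated lists are far longer, so these shares are not at the same list length. Among the top 20 peaks by rank, 7 lay there in each untreated list. The number was 16 in e3KRAB1, 17 in e3KRAB2, 17 in Empty and 16 in Control. Such places took 12.3% of the e3KRAB1 peaks, 15.2% of the e3KRAB2 peaks, 12.6% of the Empty peaks and 11.2% of the Control peaks. They made up 9 of the 10 regions of best mean rank. The strongest, chr1:121483897-121485601 (hg19, as all peak coordinates here), ranked 1 in each list, with a −log10 q of 287 in e3KRAB1, 277 in e3KRAB2, 284 in Empty and 282 in Control. Its fold enrichment was 9.13 in e3KRAB1, 9.48 in e3KRAB2, 8.80 in Empty and 8.86 in Control. The only one of the 10 away from a centromere was chr3:196625424-196626010, at 20.6-fold in e3KRAB1, 21.8-fold in e3KRAB2, 20.1-fold in Empty and 22.1-fold in Control. Near centromeres 39.8% of the shared regions had no peak in either untreated list, against 7.30% of those farther away.

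At the 271 shared regions, which were required to have a peak in all 4 lists, few differences in fold enrichment passed 1.5-fold. The median fold enrichment, the authors' value for each peak, was 5.70 in e3KRAB1, 5.61 in e3KRAB2, 5.86 in Empty and 5.72 in Control. Median −log10 q was 6.76 in e3KRAB1, 5.70 in e3KRAB2, 7.04 in Empty and 7.45 in Control. For each region the log2 fold enrichment was centred on its library's median, and the mean of Empty and Control was taken from the mean of e3KRAB1 and e3KRAB2. This difference ran from −0.30 at the 5th percentile to 0.36 at the 95th; the centring itself puts its middle near 0. Both centred e3KRAB values lay below both others in 36 regions (13.3%) and above both others in 57 (21%), while the groups overlapped in 178. A difference past 1.5-fold with no overlap was found at 1 region in each direction (0.369% each way). By −log10 q, centred in the same way, 37 regions (13.7%) lay below and 56 (20.7%) above, of which 28 and 48 were also called so by fold enrichment.

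**Figure D1:**
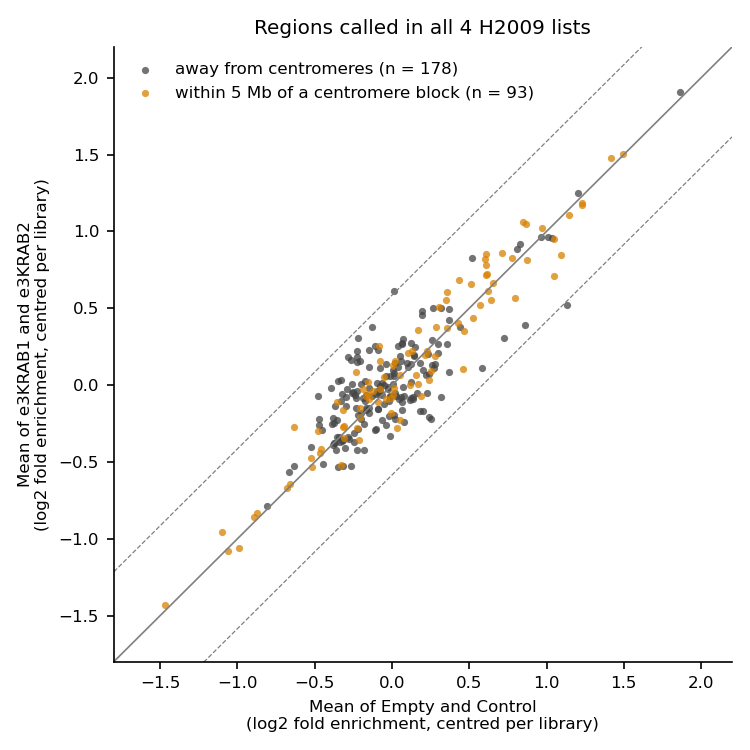
Centred log2 fold enrichment at the 271 regions with a peak in all 4 lists, as the mean of e3KRAB1 and e3KRAB2 (vertical) against the mean of Empty and Control (horizontal); each point is 1 region, the solid line marks equality and the dashed lines a 1.5-fold difference. Points follow the line over the whole range, and 1 point lies past each dashed line; regions within 5 Mb of a centromere block (orange) had a median absolute difference of 0.09 and the others (grey) 0.13.

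The e3KRAB libraries differed from each other, and Empty from Control, by about as much as the e3KRAB libraries differed from Empty and Control. The SD over the 271 regions of the log2 difference was 0.24 between e3KRAB2 and e3KRAB1 and 0.26 between Control and Empty. Across labels it was 0.27 for e3KRAB1 and Empty, 0.26 for e3KRAB1 and Control, 0.28 for e3KRAB2 and Empty and 0.24 for e3KRAB2 and Control. Past 1.5-fold, e3KRAB2 was lower than e3KRAB1 at 4 regions (1.48%) and higher at 2 (0.738%), and Control was lower than Empty at 4 (1.48%) and higher at 5 (1.85%). Against Empty, e3KRAB1 was lower at 3 regions (1.11%) and higher at 5 (1.85%), and e3KRAB2 was lower at 5 (1.85%) and higher at 6 (2.21%). Against Control, e3KRAB1 was lower at 3 (1.11%) and higher at 7 (2.58%), and e3KRAB2 was lower at 3 (1.11%) and higher at 2 (0.738%). Overlaps of equal-length lists were also of one size. The share of merged regions with a peak in both lists was 18.2% for e3KRAB2 and e3KRAB1 and 19.9% for Control and Empty. Across labels it ran from 16.7%, for e3KRAB2 and Empty, to 21.1%, for e3KRAB1 and Control.

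The clearest drop among the shared regions was at chr3:73159800-73160229. Its fold enrichment was 7.92 in e3KRAB1 and 8.34 in e3KRAB2, against 12.5 in Empty and 12.9 in Control. The 2 libraries of each kind lay close to each other and the groups were far apart, by −0.61 on the centred log2 scale. Its −log10 q was 7.86 in e3KRAB1 and 8.36 in e3KRAB2, against 20.6 in Empty and 20.7 in Control. Both untreated lists had a peak there. No other region dropped past 1.5-fold.

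The next 9 drops were smaller, between −0.47 and −0.35 on the same scale, and 4 of them lay at a gene start. Of all 271 shared regions 17 matched an entered start. The starts named here were entered after these regions were seen, so the counts cannot be compared. At PEF1, a calcium-binding adaptor of a ubiquitin ligase, the fold enrichment was 4.34 in e3KRAB1 and 5.43 in e3KRAB2, against 8.30 in Empty and 5.74 in Control (chr1:32109919-32110551). Only Empty stood well above the e3KRAB libraries, and Control lay just above e3KRAB2. At ARPC5, a subunit of the actin-nucleating Arp2/3 complex, it was 4.69 in e3KRAB1 and 5.12 in e3KRAB2, against 7.06 in Empty and 6.64 in Control (chr1:183604126-183604814). Here both libraries of each kind kept together. At UBXN4, which takes part in the degradation of endoplasmic reticulum proteins, it was 5.22 in e3KRAB1 and 5.49 in e3KRAB2, against 6.46 in Empty and 8.08 in Control (chr2:136499421-136500237). At SCAND1, a SCAN domain protein, it was 4.75 in e3KRAB1 and 5.34 in e3KRAB2, against 7.33 in Empty and 6.02 in Control (chr20:34541490-34542350). PEF1, ARPC5 and UBXN4 were also lower by centred −log10 q in both e3KRAB lists, while at SCAND1 the centred −log10 q overlapped between the groups.

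The remaining 5 drops had no gene start among those entered. At chrX:108297392-108297996 the fold enrichment was 5.99 in e3KRAB1 and 6.24 in e3KRAB2, against 8.36 in Empty and 8.97 in Control. At chrX:136520191-136520708 it was 7.18 in e3KRAB1 and 6.80 in e3KRAB2, against 8.96 in Empty and 10.3 in Control. Neither X region had a peak in an untreated list. At chr8:70602142-70602695, on the chromosome that carries MYC but far from it, it was 9.37 in e3KRAB1 and 5.88 in e3KRAB2, against 11.4 in Empty and 9.72 in Control. The e3KRAB libraries there differed more from each other than e3KRAB1 did from Control, and the untreated lists had no peak. At chr20:26189803-26190346, beside the centromere, it was 5.84 in e3KRAB1 and 6.37 in e3KRAB2, against 7.79 in Empty and 8.16 in Control. At chr5:10006-11632, at the end of the short arm, it was 5.36 in e3KRAB1 and 4.73 in e3KRAB2, against 7.47 in Empty and 5.75 in Control.

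Several of these drops leaned on 1 library. All kept their sign, but they were picked with both e3KRAB values below both others. Leaving out 1 library can then hardly change the sign, so this is no check. The PEF1 difference was −0.25 without Empty and −0.77 without Control, and that at UBXN4 was −0.60 without Empty. The chromosome 8 difference was −0.84 without e3KRAB1 and −0.18 without e3KRAB2, and the chromosome 5 one −0.20 without Empty and −0.57 without Control.

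Rises of a similar size were found as well. The largest, chr5:71146555-71147105, had a fold enrichment of 10.4 in e3KRAB1 and 7.18 in e3KRAB2, against 6.24 in Empty and 5.48 in Control, a difference of 0.60 that rested mostly on e3KRAB1. It had no peak in the untreated lists and was the only rise past 1.5-fold. Of the next 9, between 0.52 and 0.37, 7 lay at a gene start, again entered after the regions were seen. All 9 had a peak in both untreated lists. At RPA2, a subunit of the single-stranded DNA binding protein RPA, the fold enrichment was 7.96 in e3KRAB1 and 6.13 in e3KRAB2, against 4.70 in Empty and 5.27 in Control (chr1:28240563-28241026). At C16orf95 it was 7.62 in e3KRAB1 and 7.07 in e3KRAB2, against 4.93 in Empty and 5.67 in Control (chr16:87351074-87351628). At MOB4, a member of the STRIPAK phosphatase complex, it was 6.51 in e3KRAB1 and 6.31 in e3KRAB2, against 4.82 in Empty and 4.68 in Control (chr2:198380833-198381359). Both libraries of each kind nearly coincided at MOB4, with spreads of 0.02 in the e3KRAB libraries and 0.01 in Empty and Control on the log2 scale.

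At KPNA2, an importin alpha that carries proteins into the nucleus, the fold enrichment was 7.54 in e3KRAB1 and 5.78 in e3KRAB2, against 5.16 in Empty and 4.74 in Control (chr17:66031862-66032380). At CMTR2, which methylates the cap of mRNA, it was 6.51 in e3KRAB1 and 6.17 in e3KRAB2, against 5.31 in Empty and 4.37 in Control (chr16:71322743-71323320). At AEBP2, a cofactor of the Polycomb complex PRC2, it was 5.43 in e3KRAB1 and 5.33 in e3KRAB2, against 4.09 in Empty and 4.22 in Control (chr12:19592606-19593454). In all 3 cases the e3KRAB libraries were both higher, with KPNA2 depending most on e3KRAB1. At NAGK, a sugar kinase, it was 5.32 in e3KRAB1 and 5.87 in e3KRAB2, against 4.49 in Empty and 4.33 in Control (chr2:71295004-71295626). The 2 rises with no gene start entered were chr19:12606387-12606911, at 5.84 in e3KRAB1 and 7.05 in e3KRAB2, against 5.11 in Empty and 4.80 in Control, and chr1:147931017-147931651, at 6.06 in e3KRAB1 and 6.49 in e3KRAB2, against 4.99 in Empty and 4.90 in Control. Gene starts were named among both drops and rises, which says nothing of how frequent they are, since they were entered for regions already seen. Without e3KRAB1 the difference was 0.30 at the chromosome 5 region, 0.30 at RPA2 and 0.22 at KPNA2. It was 0.23 without e3KRAB2 at the chromosome 19 region and 0.26 without Control at CMTR2. These 20 regions were chosen for their difference, so their values are a description.

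**Figure D2:**
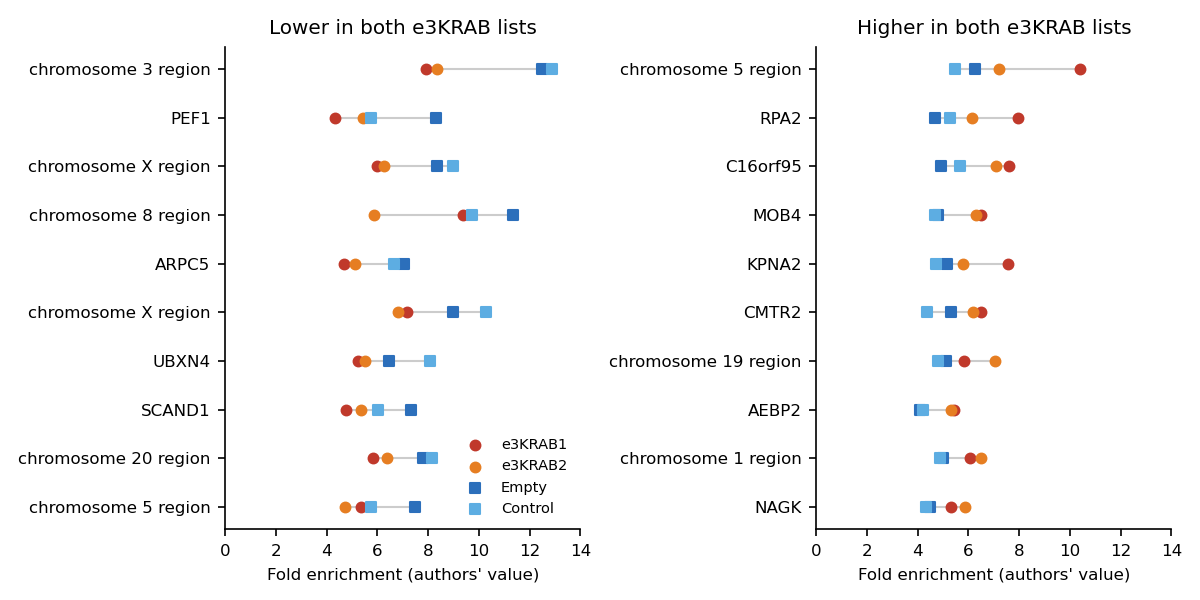
Fold enrichment, the authors' value, of the 10 regions with the largest centred drop (left panel) and the 10 with the largest centred rise (right panel) in e3KRAB1 and e3KRAB2 (circles) relative to Empty and Control (squares); rows carry the gene whose start lies within 2 kb or else the chromosome. The chromosome 3 region in the top row of the left panel shows the widest gap between circles and squares, while in several rows, such as PEF1, the nearest circle and square almost touch.

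Losses of whole peaks were set against gains counted the same way. With lists of equal length, 456 regions had a peak in both Empty and Control, and 122 of them (26.8%, Wilson 95% interval 22.9 to 31.0) had none in either e3KRAB list. In the mirror count, 426 regions had a peak in both e3KRAB lists, and 94 (22.1%, 18.4 to 26.2) had none in Empty or Control. The intervals overlap. Which of the shares was higher depended on the library left out, since 1 library then decides for its side whether a peak is present. The loss was 43.2% and the gain 59.0% without e3KRAB1, and 41.4% and 52.0% without e3KRAB2. The loss was 54.3% and the gain 34.9% without Empty, and 57.5% and 40.9% without Control. The intervals cover counting error over regions only, and neighbouring regions are not independent.

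Lost and gained regions were alike in kind. The lost regions had a median width of 494.5 bp, against 626 bp for the kept ones, and the gained regions 470 bp, against 627 bp. Kept regions join the peaks of more lists, which widens them, so these widths are not on one footing. Within 5 Mb of a centromere block lay 9.84% of the lost and 32.6% of the kept regions, and 11.7% of the gained and 32.2% of those also found in Empty or Control. Each untreated list had a peak at 93.4% of the lost and 95.7% of the gained regions, so most were places acetylated in H2009 in general. The shares were lower for the regions kept, at 80.5% and 81.4% beside the losses and 80.7% and 82.2% beside the gains. The median untreated fold enrichment was 6.89 and 6.59 for the lost regions and 6.83 and 6.74 for the gained ones. It was higher for the regions kept, at 7.40 and 7.38 beside the losses and 7.69 and 7.58 beside the gains.

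Losses and gains were rare among the strongest regions and frequent among the weakest. The regions were split by mean rank into 4 groups of nearly equal size. Of the Empty and Control regions in the strongest group 7 of 114 (6.14%) were lost, followed by 21.1%, 33.3% and, in the weakest, 46.5%. Of the e3KRAB regions in the strongest group 4 of 107 (3.74%) were gained, followed by 18.7%, 29.2% and 36.8%. Places near centromeres made up 70 of the 114 regions in the strongest group and 9 of the weakest for losses, and 66 of 107 and 15 of 106 for gains. Away from centromeres the losses were 4 of 44 (9.09%), 26.7%, 33.3% and 47.6% from the strongest group to the weakest, and the gains 3 of 41 (7.32%), 17 of 81, 31.6% and 36.3%. Peaks near the end of a list are those most easily missed in another library, and how much of the losses this accounts for was not tested.

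**Figure D3:**
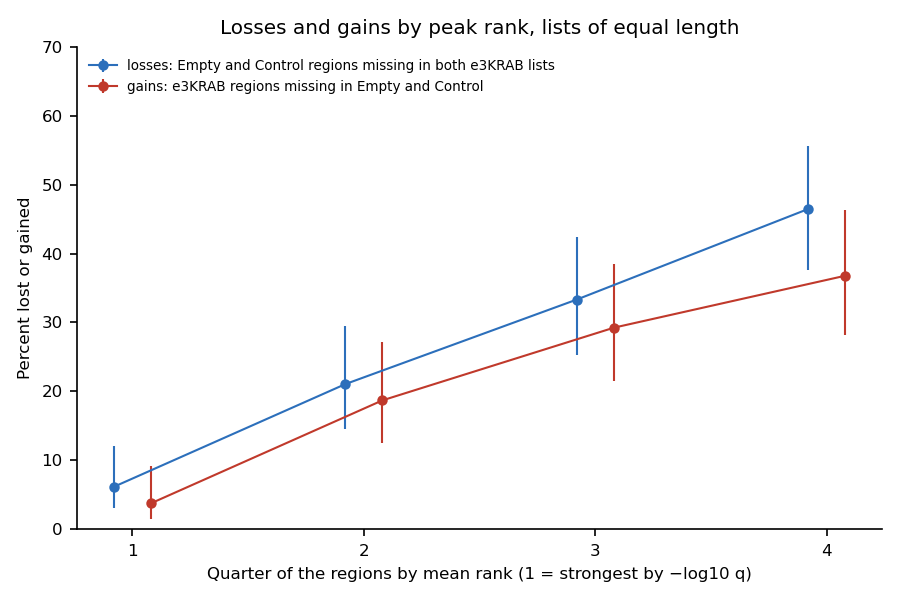
Percent of regions lost (blue, of those in both Empty and Control) and gained (red, of those in both e3KRAB lists) by mean rank, in 4 groups from strongest to weakest, in lists of equal length; bars are Wilson 95% intervals, which cover counting error only. Both lines climb from the strongest group, at 6.14% and 3.74%, to the weakest, at 46.5% and 36.8%, and their bars overlap in every group.

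Per chromosome, losses ranged from 0 of 6 regions on X to 5 of 8 on chromosomes 3 and 22. The Wilson interval lay wholly above the genome-wide 26.8% on chromosome 3 (62.5%), chromosome 8 (7 of 13, 53.8%, 29.1 to 76.8), chromosome 19 (10 of 21, 47.6%, 28.3 to 67.6) and chromosome 22 (62.5%). It lay wholly below on chromosome 5 (2 of 38, 5.26%, 1.46 to 17.3) and chromosome 10 (1 of 23, 4.35%). Of 17 regions on chromosome 10 in all 4 lists, 2 lay away from the centromere, against 24 of 33 on chromosome 5. Places near centromeres made up a smaller part of the lost than of the kept regions. Without them 6 shares of losses and gains stood apart from the genome-wide value, against 8 with them. That setting was chosen after seeing the data, and the chromosomes concerned are not reported here. Gains stood above their genome-wide 22.1% on chromosome 18 (3 of 5) and chromosome 19 (10 of 19, 52.6%, 31.7 to 72.7). On chromosome 19 losses and gains were thus both frequent. No adjustment was made for the number of chromosomes looked at.

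With whole lists, where 32.2% of regions were lost and 17.5% gained, 4 of these 8 shares still stood apart. They were losses on chromosome 5 (11 of 69, 15.9%), chromosome 10 (4 of 29, 13.8%) and chromosome 22 (9 of 16, 56.3%), and gains on chromosome 19 (11 of 33, 33.3%). On chromosome 8, 11 of 28 regions (39.3%, 23.6 to 57.6) were lost with whole lists, an interval that includes the genome-wide share.

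**Figure D4:**
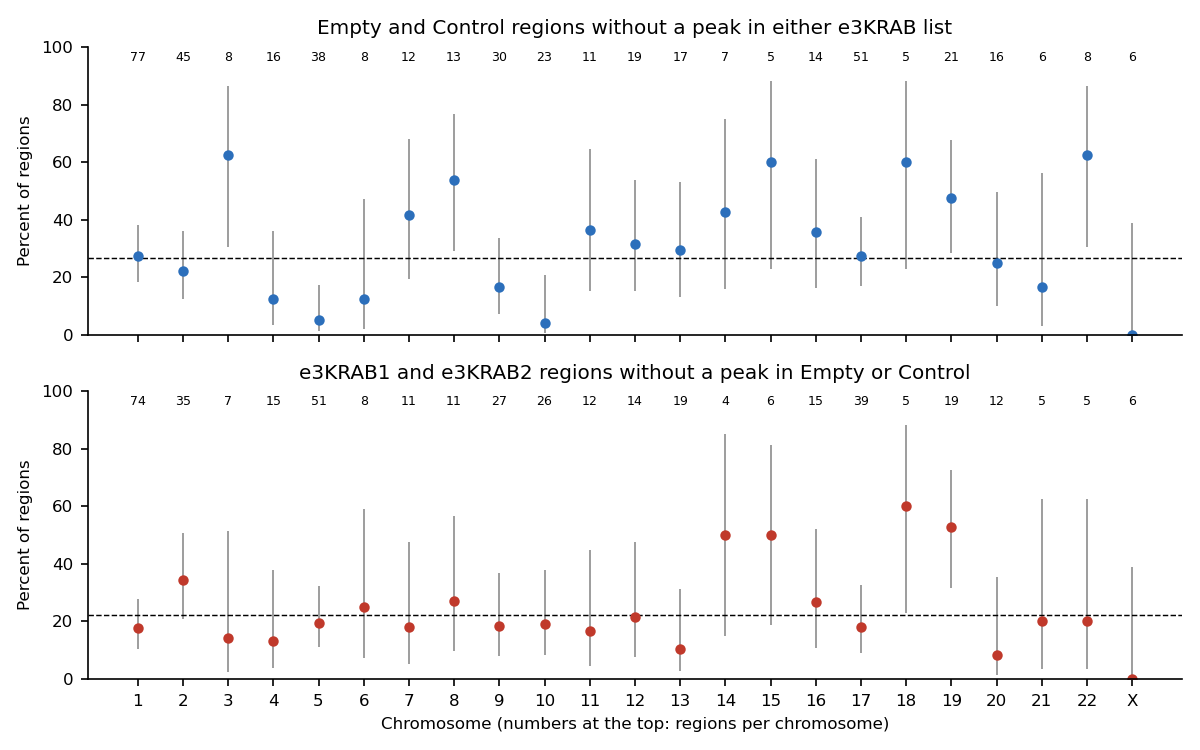
Share of regions lost (upper panel, of those in both Empty and Control) and gained (lower panel, of those in both e3KRAB lists) on each chromosome with lists of equal length; bars are Wilson 95% intervals, the dashed line is the genome-wide share, and the numbers at the top count regions. Most bars cross the dashed line; chromosome 5 with 38 regions lies below it in the upper panel, and chromosome 19 lies above it in both panels.

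Some chromosome arms held a larger share of all 4 short lists than of the untreated lists, which are far longer and not cut to the same length. Away from centromeres, 28 of the 178 shared regions lay on 1q (15.7%), 22 on 17q (12.4%) and 20 on 5p (11.2%). The same arms held 4.94% and 4.89%, 4.85% and 4.85%, and 1.86% and 1.81% of such peaks in the untreated lists. On 5p the share of such peaks was 5.36% in e3KRAB1 and 5.06% in e3KRAB2, against 5.64% in Empty and 4.84% in Control. Both e3KRAB values were below both others at 4 of the 20 regions on 5p and above at 4. On 1q the share was 9.16% in e3KRAB1 and 8.83% in e3KRAB2, against 8.97% in Empty and 9.33% in Control. On 17q it was 7.95% in e3KRAB1 and 6.95% in e3KRAB2, against 9.15% in Empty and 8.89% in Control. The groups overlapped on 5p and 1q, while on 17q both e3KRAB shares were lower than both others. Such a separation was not particular to 17q and occurred in both directions. On 20q the share was 1.38% in e3KRAB1 and 1.29% in e3KRAB2, against 2.05% in Empty and 1.90% in Control. On 10q it was 2.85% in e3KRAB1 and 2.23% in e3KRAB2, against 1.37% in Empty and 1.38% in Control. All 3 arms held a larger share in each of the 4 lists than in the untreated ones.

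Candidate off-target places were defined from the peaks alone, since no guide sequence was used here. A place counted when it was among the strongest 1375 peaks of both Empty and Control and had no peak in either whole e3KRAB list. This gave 92 of 456 regions (20.2%, 16.7 to 24.1). The mirror places, strong in both e3KRAB lists and without a peak in the whole Empty and Control lists, numbered 50 of 426 (11.7%, 9.02 to 15.1), and the intervals did not overlap. The whole lists used to declare a peak missing differ in length, with 2315 and 1375 peaks in the e3KRAB lists against 1960 and 3250 in Empty and Control. A longer list leaves fewer places without a peak, and list length and label cannot be told apart in these counts. The order of the counts turned round when either e3KRAB library was left out, but the regions counted over changed as well. Every peak of the 1 list left on a side then counts for that side. Without e3KRAB1, 197 of 456 regions were lost places and 610 of 1370 gained places, and without e3KRAB2 254 of 665 and 867 of 1949. Without Empty there were 670 lost places of 1372 regions and 85 gained of 424. Without Control there were 695 of 1373 and 144 of 425. These counts are thus not comparable in size.

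The 92 places were spread over 21 chromosomes and the 50 over 19. Of the 92, 84 had a peak in both untreated lists and 9 lay near a centromere; of the 50, 45 and 7 did. Chromosome 8 held 5 of the 92 and 1 of the 50. The 5 were chr8:56986305-56986980, chr8:59465818-59466309, chr8:90996538-90996851, chr8:102505252-102505977 and chr8:133787697-133788258, and their fold enrichment ran from 4.32 to 6.16 in Empty and from 5.23 to 7.73 in Control.

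Among the 10 lost places of best mean rank, 2 lay beside centromeres. These were chr18:18517670-18517992, at 2.92-fold in Empty and 2.94-fold in Control, and chr10:42360490-42361015, at 4.52-fold in Empty and 4.58-fold in Control. At 6 others a gene starts, by starts entered after these places were seen. ERCC6L2, a helicase-like protein of DNA repair, had 6.76-fold in Empty and 6.92-fold in Control (chr9:98637898-98638350). SERF2 had 7.05-fold in Empty and 7.52-fold in Control (chr15:44084573-44085179). EPC2, a relative of the Polycomb enhancer of the fly, had 5.68-fold in Empty and 7.10-fold in Control (chr2:149402158-149402764). All 3 places had a peak in both untreated lists, with 8.38-fold at ERCC6L2, 9.31-fold at SERF2 and 9.40-fold at EPC2 in untreated 1.

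DNAH3, a heavy chain of ciliary dynein, had 6.99-fold in Empty and 6.72-fold in Control (chr16:21170502-21171070). PREB, whose promoter is printed above, had 7.17-fold in Empty and 6.80-fold in Control (chr2:27356918-27357514). ZNF335 had 5.68-fold in Empty and 6.98-fold in Control (chr20:44600584-44601034). The untreated lists gave 9.52-fold and 8.06-fold at PREB and 7.51-fold and 7.54-fold at ZNF335. The other 2 were chr1:16993374-16993793, at 6.10-fold in Empty and 7.74-fold in Control, and chr1:16840748-16841127, at 7.53-fold in Empty and 5.76-fold in Control; both were above 11-fold in the untreated lists. None of these 10 places had a peak in e3KRAB1 or e3KRAB2.

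Lost places within 100 kb of each other occurred 2 times and gained ones 0 times. On chromosome 1, a pair of lost places spanned chr1:16993374-17067044. On chromosome 19, the pair spanned chr19:45504769-45542664 and lay at the starts of RELB, a subunit of the NF-kB family, and CLASRP, a splicing-related SR protein. The RELB place had 9.04-fold in Empty and 6.30-fold in Control, and the CLASRP place 5.75-fold in Empty and 6.56-fold in Control. Both untreated lists had peaks at these starts, of 8.57-fold and 9.15-fold at RELB and 5.90-fold and 10.8-fold at CLASRP.

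The 10 mirror places of best mean rank looked much the same. The first, beside a centromere at chr10:42386973-42387344, had 1.94-fold in e3KRAB1 and 2.10-fold in e3KRAB2. AMZ2, a metallopeptidase, had 5.66-fold in e3KRAB1 and 7.50-fold in e3KRAB2 (chr17:66243390-66243997). GSTO1 had 6.89-fold in e3KRAB1 and 7.01-fold in e3KRAB2 (chr10:106014575-106015021). TGOLN2 had 5.99-fold in e3KRAB1 and 6.30-fold in e3KRAB2 (chr2:85555108-85555585). GSTO1 and TGOLN2 are the 2 genes whose promoters are printed above as gains, and the untreated lists gave 8.33-fold and 7.48-fold at GSTO1 and 6.46-fold and 7.28-fold at TGOLN2.

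SELENOF, a selenoprotein of the endoplasmic reticulum, had 5.44-fold in e3KRAB1 and 6.71-fold in e3KRAB2 (chr1:87379328-87379914). SPAG5, a protein of the mitotic spindle, had 5.99-fold in e3KRAB1 and 5.32-fold in e3KRAB2 (chr17:26926227-26926761), within 5 Mb of a centromere block. The remaining 4 were chr19:6828568-6828976, chr5:27242365-27242792, chr9:41954491-41954891 and chr2:74781511-74781870, from 5.16-fold to 7.50-fold in e3KRAB1 and from 5.55-fold to 6.79-fold in e3KRAB2. None of these 10 had a peak in Empty or Control, and 9 of them had one in both untreated lists. Gene starts with a peak in both untreated lists were thus found among the losses and among the gains, by starts entered after the places were seen.

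Starts of known genes gave a check that counts only whether a peak is present, although the equal-length lists were cut by −log10 q. Of 89 genes entered by name, 58 had a peak within 2 kb of the start in both untreated lists. A peak was present at 13 of the 58 in e3KRAB1 and 13 in e3KRAB2, against 13 in Empty and 17 in Control. With lists of equal length the counts were 8 in e3KRAB1 and 13 in e3KRAB2, against 10 in Empty and 11 in Control. At 28 of the 58 no list had a peak, and at 13 only 1 list did. No gene had a peak in both Empty and Control and in neither e3KRAB list, and none had the reverse, with whole lists or at equal length. Few genes could have been called, as 5 had a peak in both Empty and Control and 4 in both e3KRAB lists.

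The genes with a peak in all 4 lists were B2M, TUBA1B and MCL1. At B2M, the light chain of MHC class I, the fold enrichment was 5.50 in e3KRAB1 and 7.23 in e3KRAB2, against 5.04 in Empty and 4.98 in Control. At TUBA1B, an alpha tubulin, it was 5.55 in e3KRAB1 and 6.44 in e3KRAB2, against 5.13 in Empty and 6.67 in Control. At MCL1, a short-lived protein that blocks apoptosis, it was 3.79 in e3KRAB1 and 4.06 in e3KRAB2, against 4.65 in Empty and 4.66 in Control. The groups overlapped at TUBA1B, the e3KRAB values were higher at B2M and lower at MCL1.

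Of 18 housekeeping genes, 6 had a peak in e3KRAB1 and 5 in e3KRAB2, against 7 in Empty and 5 in Control. Of 7 early response genes, 3 had one in e3KRAB1 and 1 in e3KRAB2, against 3 in Empty and 4 in Control. Of 9 epithelial genes entered, 5 had a peak in both untreated lists. KRT8, ELF3 and KLF5 had none in any of the 6 H2009 lists, and KRT7 had one in untreated 2 only. Of the 5, 0 had a peak in e3KRAB1 and 2 in e3KRAB2, against 1 in Empty and 2 in Control. The e3KRAB1 list thus gives no check of the epithelial identity of the line. Of 7 genes of the NRF2 pathway, 2 had one in e3KRAB1 and 1 in e3KRAB2, against 1 in Empty and 3 in Control.

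Many genes had a peak in only 1 of the e3KRAB lists, or in only 1 of Empty and Control. EEF1A1, the elongation factor that brings tRNA to the ribosome, had 5.17-fold in e3KRAB1, 5.96-fold in e3KRAB2, no peak in Empty and 7.09-fold in Control. JUN, an immediate early transcription factor, had 3.19-fold in e3KRAB1, no peak in e3KRAB2, 3.61-fold in Empty and 4.16-fold in Control. JUND, of the same family, had 4.64-fold in e3KRAB1 and 5.32-fold in Control only. EPCAM, a surface marker of epithelium, had no peak in e3KRAB1, 5.06-fold in e3KRAB2, 4.82-fold in Empty and 5.54-fold in Control. CDH1, the epithelial cadherin, had 4.52-fold in e3KRAB2 and 4.32-fold in Control only, and the epithelial keratin genes KRT18 and KRT19 had a peak in the untreated lists alone. The NRF2 pathway showed the same pattern, with KEAP1, the inhibitor of NRF2, at 4.71-fold in e3KRAB2 and 4.81-fold in Control, NQO1, a target, at 4.06-fold in e3KRAB1 and 4.13-fold in Empty, and NFE2L2, which encodes NRF2, at 4.03-fold in e3KRAB1 and 3.92-fold in Control.

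Of 16 growth genes, 1 had a peak in e3KRAB1 and 2 in e3KRAB2, against 0 in Empty and 2 in Control, and 11 had none in any of the 4 lists. NRAS, a small GTPase, had 7.64-fold in e3KRAB2 alone, MDM2, which degrades p53, 5.59-fold in e3KRAB1 alone, and HIF1A, the oxygen-regulated factor, 5.05-fold in e3KRAB2 alone. SETDB1, the methyltransferase that KRAB repressors recruit, had 5.72-fold in e3KRAB2 and 4.76-fold in Control only, and TRIM28 had a peak in the untreated lists alone. At the start of MYC no list of the 4 had a peak, against 3.11-fold and 3.14-fold in the untreated lists, so a change there was not detectable in these lists. Of 11 markers, all of other cell types except NKX2-1, 0 had a peak in e3KRAB1, 2 in e3KRAB2 (VIM and COL1A1), 1 in Empty (COL1A1) and 0 in Control. The untreated lists had these peaks as well, with VIM and COL1A1 in untreated 1 and COL1A1 in untreated 2. Blood, liver, glial and muscle markers (PTPRC, CD3E, MS4A1, HBB, ALB, GFAP and DES) had no peak in any of the 6 H2009 lists, and neither had NKX2-1, a lung lineage factor.

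**Figure D5:**
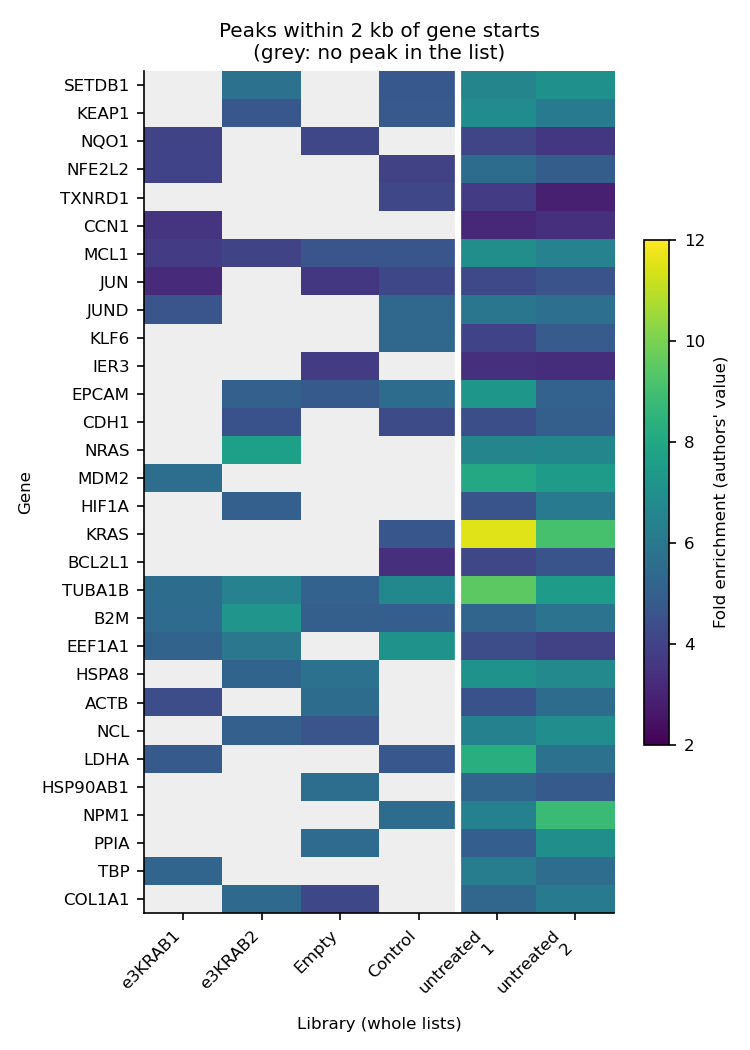
Fold enrichment, the authors' value, of the strongest peak within 2 kb of the start of the 30 genes with a peak in both untreated lists and in at least 1 of the e3KRAB1, e3KRAB2, Empty and Control lists; grey means no peak. Filled cells are scattered over the left 4 columns, B2M, TUBA1B and MCL1 are filled in all of them, and no gene is filled in both Empty and Control and grey in both e3KRAB columns.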

How the data were processed

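H3K27ac peak lists of 6 H2009 libraries were read; each deposited list was treated as called per sample. The submitters' processing notes name BWA and hg19; the BWA version, peak caller, control and pooling are not given in the sources used. Per peak the deposited lists hold a fold enrichment ratio (column 7), a −log10 p (8), a −log10 q (9), a score that is 10 times column 9, cut to a whole number (5), and a summit offset in bases (10). These are the authors' values, used to describe and rank peaks. Read depth is unknown.

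Computed here, with Python 3.11.15, pandas 2.3.3, numpy 2.4.6 and scipy 1.17.1: peaks on chromosomes 1 to 22 and X that overlapped by at least 1 bp were merged into regions, a region taking the largest value of each list. Equal-length lists kept the 1375 peaks with the highest −log10 q. Log2 fold enrichment was centred on each library's median over the shared regions. Intervals of shares are 95% Wilson intervals for counting error alone. With 1 library per label there is no test. The counting steps were tested on simulated data.

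The members and lists were chosen with earlier results of these data known. Named were the 10 largest centred drops and rises, the 10 best-ranked lost and gained places, clusters of places, and 3 genes per gene list by mean fold enrichment. Gene starts (hg19; 89 genes of fixed lists and 28 named after their peaks were seen) and centromere blocks were entered from general knowledge, because no hg19 annotation was used here. All 117 starts lay on the chromosome that the RefSeq GRCh38.p14 table gives, and all 97 neighbouring pairs had its order. No GRCh38 coordinates were printed. A region with no gene named may still lie at a gene that was not entered.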

Additional observations from a re-analysis of the deposited data

How the results depend on the processing

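No paired analysis was possible because each label has 1 library. Short lists of unknown depth limit what a missing peak means. The 271 shared regions numbered 177 with an overlap of at least 50% and 178 without places near centromeres, a setting chosen after seeing the data. The loss of 26.8% was 32.2% with whole lists, 34.0% at 50% overlap and 32.8% without places near centromeres; the gain of 22.1% was 17.5% with whole lists, 29.1% with lists ranked by fold enrichment and 26.9% without places near centromeres. Leaving out 1 library gave losses from 41.4% (without e3KRAB2) to 57.5% (without Control) and gains from 34.9% (without Empty) to 59.0% (without e3KRAB1). The loss was below the gain without either e3KRAB library and above it without Empty or Control. The 1 drop past 1.5-fold became 19 by −log10 q, 11 at a lower fold threshold and 0 past 2-fold, and 2 to 4 without 1 library. The 1 rise became 26 by −log10 q, 16 at a lower fold threshold, 0 past 2-fold, 0 at equal length and 0 without centring. It became 0 without places near centromeres and 1 to 4 without 1 library. The rise itself does not lie near a centromere, and its ratio of 1.51 was barely past 1.5-fold. The 92 lost places were 48 in lists cut to their top 50% and 197 (without e3KRAB1) to 695 (without Control) without 1 library. The 50 gained places were 31 and 85 (without Empty) to 867 (without e3KRAB2). Gained places outnumbered lost ones without either e3KRAB library, where the gains were also counted over more regions than the losses. Gene starts lost or gained, 0 here, were 4 to 5 without 1 library. The 8 chromosome shares apart from the genome were 4 with whole lists, 4 ranked by fold enrichment, 4 at 50% overlap and 3 with the top 50%. They were 6 to 12 without 1 library and 6 without places near centromeres. The 20 named regions kept their sign without each library and without centring. They were picked for having no overlap between the groups, which nearly fixes the sign without 1 library. Of the 20, 9 moved by over 1.5 times without 1 library, and the cause was not tested.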
